A study of Homo sapiens with 6 samples.

Results

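The genes described here are 55 factors that assemble the small (40S) subunit of the ribosome, among the 25702 gene identifiers counted in each library. They were chosen by symbol and matched to NCBI Gene identifiers. All 55 were found in the tables, and 54 passed the filter on low counts that left 15431 genes for testing. The exception was WDR46, which had 0 counts in 5 libraries and 1 in the other.

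RNA came from the chronic myeloid leukemia cell line K562 after transient transfection with the vector pCMV-HA, either without an insert (EV) or expressing MXD3 or STIM1::MXD3, a gene fusion. There were 2 libraries per group, which the study describes as separate transfections, and p-values measure only the spread between these libraries. The labels list no drug or other treatment for any group. In this vector the cytomegalovirus promoter drives the insert, so the construct does not follow the control of the cells' own MXD3 gene, and expression is transient. RNA was from bulk cells, so a larger share of cells with a transcript and more of it per cell cannot be told apart.

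The nucleolus builds the 40S subunit from a long precursor RNA. The UTP-A complex binds the start of this precursor, then the UTP-B complex, the U3 small nucleolar ribonucleoprotein (snoRNP) and the MPP10 complex join to form the small-subunit processome, which folds and cuts the RNA, and helicases, a GTPase and RNA-modifying enzymes carry it towards a pre-40S particle that is finished in the cytoplasm. Many genes for these factors are known targets of MYC, which binds with MAX to the E-box, a short DNA motif, while MXD3 binds the same motif with MAX and represses; the fusion keeps the DNA-binding part of MXD3 and lacks its repression domain.

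The libraries held between 53048343 and 63835779 counts, of which the 54 tested members took 0.378% to 0.446%, and the lowest count of a tested member in any library was 815. Levels are given as counts-per-million (CPM) scaled by TMM, which evens out library composition, with replicate 1 named before replicate 2. MXD3, which the plasmids carry, stood at 9.33 and 11.7 CPM in EV, 2523 and 2162 in MXD3 and 1975 and 1849 in STIM1::MXD3, and STIM1 was above its EV and MXD3 levels only in the fusion libraries (471 and 453 against 159 to 205 CPM), so the labels held. MYC was at 213 to 241 CPM in the 6 libraries. Of the 10 erythroid markers of K562 all were expressed (HBE1 at 3548 to 4697 CPM), while the 6 markers of T cells, B cells, monocytes, fibroblasts and hepatocytes stood at 2.83 CPM or less, with MS4A1 at 0 counts and ALB at 0 to 2.

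Because the E-box is the motif that MYC and MXD3 bind, the promoters of the members were searched for its canonical form, CACGTG, which reads the same on both strands. RefSeq promoter windows (GRCh38.p14, 250 bases before to 50 after the annotated start) were available for 47 of the 55 members. The motif was in 20 of these 47 (42.6%), against 7.43% of all 27305 promoters and 9.96% of the 11468 promoters of tested genes. It was in 15 of 47 promoters of large-subunit assembly factors (31.9%) in 4 of 22 promoters of further small-subunit assembly genes (18.2%) and in 1 of 26 promoters of small-subunit ribosomal proteins (3.85%). A match of letters describes the sequence and is not a measured binding site. Of the 22 matches in the members, 18 (81.8%) began within 50 bases of the start site, against 36.6% of the 2255 matches in all promoters. The window holds more bases upstream than downstream, so both shares refer to the same window. UTP20 and UTP4, described below, had the motif wholly upstream, and the 80 bases before their start are shown with the E-box in capitals, followed by the same stretch of WDR36 and BMS1, which had no match in the window.
UTP20, chr12:101280025-101280104, plus strand: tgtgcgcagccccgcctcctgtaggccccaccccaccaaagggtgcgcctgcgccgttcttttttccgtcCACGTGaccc
UTP4, chr16:69132569-69132648, plus strand: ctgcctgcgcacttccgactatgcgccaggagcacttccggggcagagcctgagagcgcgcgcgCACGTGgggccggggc
WDR36, chr5:111092268-111092347, plus strand: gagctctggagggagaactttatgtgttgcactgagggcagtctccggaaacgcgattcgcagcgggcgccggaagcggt
BMS1, chr10:42782715-42782794, plus strand: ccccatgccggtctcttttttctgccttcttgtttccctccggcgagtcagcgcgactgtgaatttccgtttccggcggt

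In RRP9, FBL, PNO1, LTV1 and DHX37 the motif lay at or just after the start site, and 30 bases around it are shown, again with the E-box in capitals. The first base of the motif was 5 bases before the start in RRP9 and was base 7 of the transcript in FBL, 10 in PNO1, 29 in LTV1 and 42 in DHX37. The bases on either side of it differed among these genes.
RRP9, chr3:51941892-51941921, minus strand: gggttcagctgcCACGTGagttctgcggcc
FBL, chr19:39846356-39846385, minus strand: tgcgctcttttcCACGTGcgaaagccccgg
PNO1, chr2:68157885-68157914, plus strand: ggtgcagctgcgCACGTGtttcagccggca
LTV1, chr6:143843354-143843383, plus strand: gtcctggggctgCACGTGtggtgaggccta
DHX37, chr12:124989082-124989111, minus strand: ggagttggtggtctgggaaccCACGTGggc

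**Figure D1:**
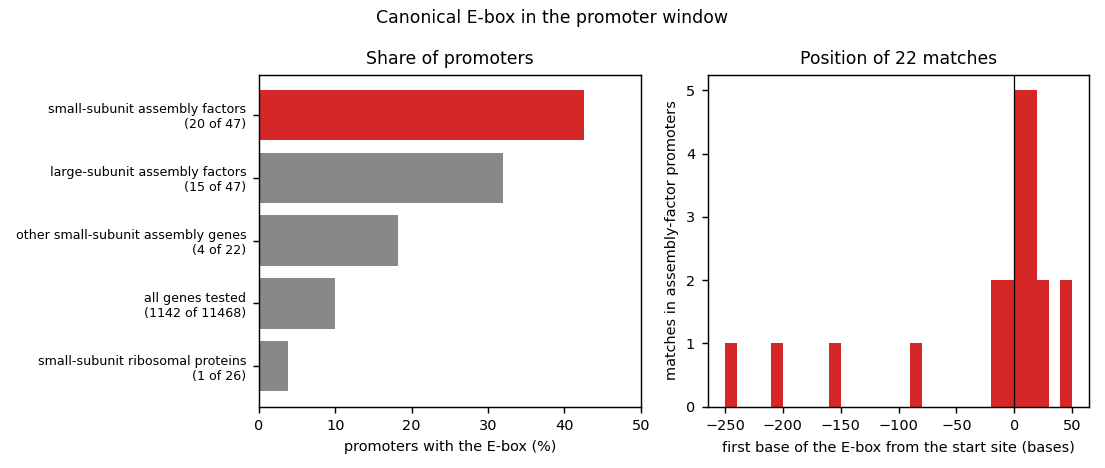
Left, bars give the percent of promoters with the canonical E-box in 5 gene groups, from 3.85% for ribosomal proteins of the small subunit to 42.6% for its assembly factors; right, the number of the 22 matches in the assembly-factor promoters in each 10-base bin by distance of the first motif base from the start site. Most matches crowd around the start site.

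Levels of the members, divided by the length of the canonical transcript, covered a wide range. FBL, the fibrillarin methyltransferase that modifies ribosomal RNA with box C/D snoRNPs, had the highest mean over the 6 libraries, 212 CPM per kilobase, followed by NCL (nucleolin), an abundant nucleolar RNA-binding protein, at 139.5. In single libraries FBL was between 185 and 229 CPM per kilobase and NCL between 121 and 164, so their ranges did not overlap. The lowest means were those of UTP20, a large repeat protein of the processome, at 3.41 and of KRR1, a KH-domain processome factor, at 2.59 CPM per kilobase. UTP20 ranged from 2.41 to 3.94 and KRR1 from 2.49 to 2.79 over the libraries, so these neighbors overlapped.

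The first comparison asked whether the fusion altered the assembly factors against EV. Summed over the 54 tested members, the level was 3934 and 4129 CPM in EV and 4384 and 4318 CPM in STIM1::MXD3, so both fusion libraries were above both EV libraries. The median log2 fold change of the members was 0.14 (0.16 between the replicate 1 libraries and 0.06 between those of replicate 2), against 0.01 for all genes tested, and corresponded to a median level 10.1% above EV. The fold change was above 0 for 49 of the 54 members (90.7%), against 52.1% of all genes. In both replicate pairs 38 members (70.4%) were higher with the fusion, where the background was 27.2%, and 0 were lower, where the background was 25.1%. Both fusion libraries lay above both EV libraries for 24 members (44.4%), against 12% of all genes, and below both for 0, against 10%. No single member passed the test: edgeR's quasi-likelihood test called 0 of 54 higher or lower at an adjusted p under 0.05, where 0.00648% of all genes (MXD3 itself) were called higher and 0% lower. At an unadjusted p under 0.05 it gave 1 higher member (RRP9; background 0.408%) and 0 lower (background 0.544%). DESeq2 called 0 as well, where it called 0.0194% of all genes. With the replicate number as a block the unadjusted count was 12 higher and 0 lower, against 3.77% and 4.74% of all genes, and the adjusted count stayed at 0 (background 0.013% and 0.00648%), also in DESeq2 (background 0.0648% and 0.0518%). The 95% intervals of single members were 0.34 wide on either side at the median, and 32 of the 54 lay wholly within a log2 change of 0.5 up or down.

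The second comparison asked the same of MXD3, and it used the same EV libraries. The summed level was 4240 and 4334 CPM in the MXD3 libraries, again above both EV libraries. The median log2 fold change was 0.10 (0.12 and 0.06 in the 2 pairs), against 0.00 for all genes, and 39 of 54 members (72.2%) were above 0 (background 50.2%). Higher in both pairs were 35 members (64.8%), against a background of 30.6%, and lower in both were 12 (22.2%), against 31.5%. Both MXD3 libraries were above both EV libraries for 18 members (33.3%; background 16.2%) and below both for 3 (5.56%; background 14.8%), which were FBL, SNU13 and DDX49. edgeR called 0 of 54 at the adjusted threshold (background 0.00648% higher, MXD3 itself, and 0% lower). At an unadjusted p under 0.05 there was 1 higher member (WDR36; background 0.953%) and 0 lower (background 0.907%), and DESeq2 called 0 (background 0.0194%). With the block edgeR again called 0 (background 0.104% higher and 0.188% lower), with 14 higher and 1 lower, NOB1, at an unadjusted p under 0.05, against 6.94% and 6.99% of all genes. DESeq2 with the block called 1 member, BMS1, higher (background 0.415%) and 0 lower (background 0.661%).

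The third comparison set the constructs against each other, and no member passed the test. The median log2 difference, STIM1::MXD3 over MXD3, was 0.03 (0.02 and 0.01 in the 2 pairs), against 0.01 for all genes. It was -0.004 when libraries were scaled by total counts, so its sign rested on the scaling. Higher with the fusion in both pairs were 19 members (35.2%; background 27.5%), and lower in both were 12 (22.2%; background 26.1%). The groups did not overlap for 6 members in each direction (11.1%), near the background of 10.9% and 10.2%. edgeR called 0 of 54 (background 0% in both directions) and gave 0 members at an unadjusted p under 0.05 (background 0.505% each way), and DESeq2 called 0 (background 0.00648%). With the block edgeR called 0 (background 0.00648% higher and 0% lower) and so did DESeq2 (background 0.0324% and 0.0194%), and edgeR gave 4 higher and 0 lower at an unadjusted p under 0.05, against 3.21% and 3.27% of all genes. The 95% intervals lay within a log2 difference of 0.5 either way for 38 of the 54, and reached past that size for the rest.

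**Figure D2:**
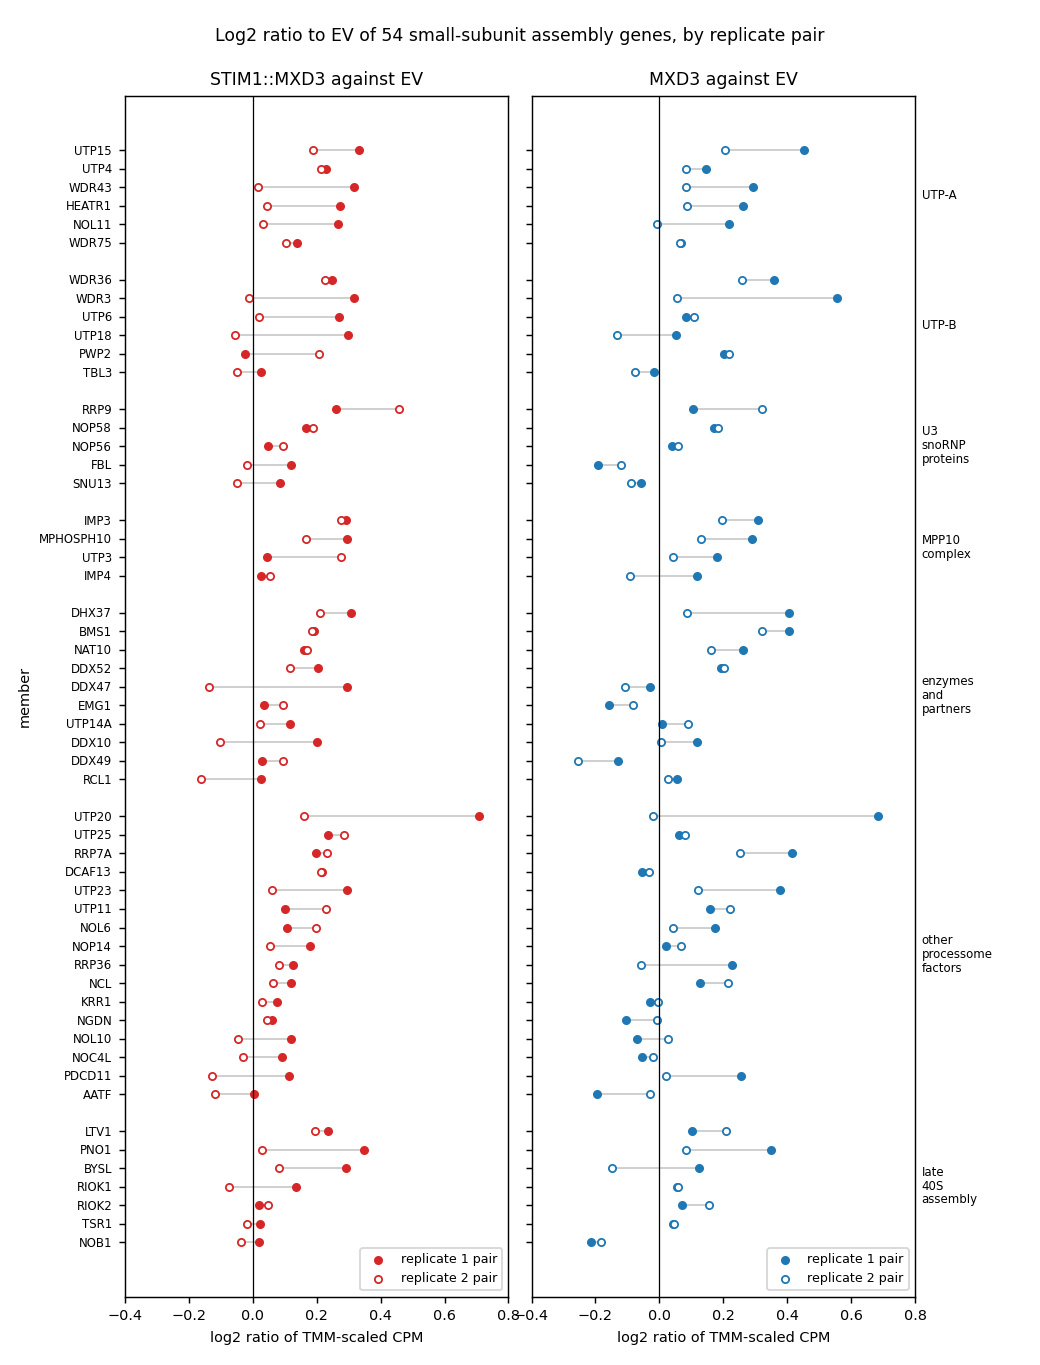
Each row is 1 of the 54 tested members, grouped by role, with its log2 ratio of TMM-scaled CPM to EV in the replicate 1 pair (filled) and the replicate 2 pair (open) for STIM1::MXD3 (left) and MXD3 (right). On the left 38 members have both points above 0 and 0 have both below, and on the right 35 have both above and 12 both below.

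By role, the UTP-A proteins were the group in which every member was higher with the fusion in both pairs, 6 of 6, beside the MPP10 complex with 4 of 4. The background was 27.2% of all genes, and groups this small give coarse shares. The median log2 fold change of UTP-A was 0.16 for STIM1::MXD3 and 0.14 for MXD3. UTP4 (cirhin), mutated in a childhood cirrhosis, held 92.5 and 97.8 CPM in EV, 102 and 104 in MXD3 and 108 and 113 in STIM1::MXD3. Both fusion libraries were above all 4 others, with a log2 fold change of 0.22 ± 0.11 (SE) against EV (unadjusted p = 0.0925, edgeR adjusted p = 1). UTP15, which is needed for transcription of ribosomal DNA as well as processing, held 17.0 and 18.1 CPM in EV, 23.2 and 20.9 in MXD3 and 21.4 and 20.6 in STIM1::MXD3. Both constructs were above EV without overlap, and MXD3 over EV gave 0.33 ± 0.15 (unadjusted p = 0.0575, edgeR adjusted p = 0.9995). Exons of UTP15 overlap ANKRA2 on the opposite strand, so its counts are uncertain. HEATR1, the large repeat protein that yeast calls UTP10, held 154 and 167 CPM in EV, 184 and 178 in MXD3 and 186 and 172 in STIM1::MXD3. All 4 libraries with a construct were above EV, most clearly in replicate 1. WDR43 and NOL11 were also above EV in both fusion libraries, whereas WDR75 overlapped EV under both constructs.

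In UTP-B, the second complex to bind the precursor, 2 of 6 members were higher with the fusion in both pairs (background 27.2%). With MXD3 it was 4 of 6 (background 30.6%), and the medians were 0.14 and 0.15. WDR36 (NCBI Gene 134430, at chr5:110428019-110466200 in GRCh37, plus strand), a beta-propeller protein of the complex, held 85.2 and 90.7 CPM in EV, 109 and 109 in MXD3 and 101 and 106 in STIM1::MXD3. All 4 libraries with a construct were above both EV libraries, by 0.24 ± 0.11 for the fusion (unadjusted p = 0.0775) and 0.31 ± 0.11 for MXD3 (unadjusted p = 0.0309), with edgeR adjusted p = 1 and 0.9995. The unadjusted p of WDR36 for MXD3 was the lowest of the 54 members in that comparison. WDR3, another beta-propeller subunit, held 46.0 and 55.7 CPM in EV, 67.6 and 57.9 in MXD3 and 57.3 and 55.2 in STIM1::MXD3, with MXD3 replicate 1 above the other libraries. Its difference between the constructs was -0.16 ± 0.15 (unadjusted p = 0.326), and -0.05 or -0.26 when MXD3 replicate 1 or 2 was left out. PWP2, the scaffold subunit that yeast calls UTP1, held 57.1 and 56.1 CPM in EV, 65.7 and 65.2 in MXD3 and 56.2 and 64.8 in STIM1::MXD3, so that fusion replicate 1 stood with EV and the other libraries with a construct were higher. UTP6 held 84.1 and 94.4 CPM in EV, 89.1 and 102 in MXD3 and 101 and 95.8 in STIM1::MXD3, and both fusion libraries were above EV. UTP18 was highest in fusion replicate 1, at 106 CPM, and at 78.0 to 89.8 CPM in the other libraries. TBL3 followed the replicate number instead, at 91.5 to 94.1 CPM in the replicate 1 libraries and 70.1 to 73.8 in those of replicate 2.

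Among the U3 snoRNP proteins, 3 of 5 were higher in both pairs under each construct (background 27.2% for the fusion and 30.6% for MXD3). FBL and SNU13 were lower in both pairs with MXD3 (background 31.5%). RRP9 (NCBI Gene 9136, at chr3:51967445-51975920 in GRCh37, minus strand), the protein that is specific to U3 among box C/D particles, held 22.5 and 20.6 CPM in EV, 24.1 and 25.8 in MXD3 and 26.9 and 28.3 in STIM1::MXD3. The 3 groups did not overlap, with EV lowest and the fusion highest. RRP9 differed by 0.36 ± 0.14 for the fusion (95% interval 0.03 to 0.68, unadjusted p = 0.0354, edgeR adjusted p = 1) and 0.21 ± 0.14 for MXD3 (unadjusted p = 0.167). With the replicate block edgeR gave 0.36 ± 0.12 for the fusion (unadjusted p = 0.00698, adjusted p = 0.463). FBL held 237 and 249.8 CPM in EV, 208 and 230.0 in MXD3 and 258 and 247 in STIM1::MXD3, and both MXD3 libraries were the lowest of the 6. Its log2 fold change was -0.15 ± 0.12 for MXD3 over EV (unadjusted p = 0.245) and 0.21 ± 0.12 for the fusion over MXD3 (unadjusted p = 0.134), both at an edgeR adjusted p over 0.99. The first of these values was -0.07 or -0.24 when MXD3 replicate 1 or 2 was left out, and the second 0.12 or 0.29 when MXD3 replicate 1 or 2 was left out. SNU13, which binds the kink-turn of box C/D RNAs and also belongs to the spliceosome, held 114 and 119 CPM in EV, 109.7 and 111 in MXD3 and 121 and 115 in STIM1::MXD3, with both MXD3 libraries again the lowest. NOP58, the core protein that pairs with NOP56 in these particles, was 98.9 and 119 CPM in EV, 111 and 135 in MXD3 and 111 and 135 in STIM1::MXD3, so that replicate 2 was the higher library in every group. Within the pairs NOP58 was above EV by 0.17 and 0.19 for the fusion and 0.17 and 0.18 for MXD3 on the log2 scale.

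The MPP10 complex had the highest median of the roles for the fusion, 0.21, and 0.16 for MXD3. IMP3, a small RNA-binding subunit that helps U3 pair with the precursor, held 52.9 and 44.9 CPM in EV, 65.5 and 51.5 in MXD3 and 64.8 and 54.5 in STIM1::MXD3. Replicate 1 was the higher library in each group, and within each pair the constructs were above EV by 0.29 and 0.28 for the fusion and 0.31 and 0.20 for MXD3 on the log2 scale. The fit gave 0.29 ± 0.17 for the fusion (unadjusted p = 0.147, edgeR adjusted p = 1), and 0.41 or 0.17 when EV replicate 1 or 2 was left out and 0.16 without STIM1::MXD3 replicate 1. With the replicate block edgeR gave 0.28 ± 0.09 for the fusion (unadjusted p = 0.00773, adjusted p = 0.475). Exons of IMP3 overlap SNX33 on the opposite strand, so its counts are uncertain. MPHOSPH10, the scaffold of the complex, held 41.6 and 44.7 CPM in EV, 50.9 and 49.0 in MXD3 and 51.1 and 50.2 in STIM1::MXD3. All 4 libraries with a construct were above both EV libraries, by 0.23 ± 0.12 (unadjusted p = 0.101) and 0.21 ± 0.12 (unadjusted p = 0.128). IMP4, the partner of IMP3 in this complex, was between 58.0 and 64.1 CPM in the 6 libraries, and its groups overlapped. UTP3, known as SAS10 in yeast, differed more between replicate numbers (20.5 to 23.3 against 29.7 to 35.9 CPM) than between groups.

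The enzymes and their partners were mixed, with 7 of 10 higher in both pairs under each construct (background 27.2% for the fusion and 30.6% for MXD3). With MXD3, 3 of 10 were lower in both, near the background of 31.5%. The medians were 0.09 and 0.06. DHX37, the helicase that releases U3 from the precursor, held 36.3 and 42.0 CPM in EV, 48.0 and 44.5 in MXD3 and 44.9 and 48.5 in STIM1::MXD3. All 4 libraries with a construct were above both EV libraries, and the fusion gave 0.26 ± 0.14 (unadjusted p = 0.108, edgeR adjusted p = 1), and 0.15 or 0.36 when EV replicate 1 or 2 was left out. BMS1 (NCBI Gene 9790, at chr10:43278243-43330385 in GRCh37, plus strand), the GTPase of the processome, held 57.4 and 72.2 CPM in EV, 76.1 and 90.2 in MXD3 and 65.7 and 82.1 in STIM1::MXD3. The MXD3 libraries were above both EV libraries, and the fusion overlapped EV. BMS1 differed by 0.36 ± 0.18 for MXD3 (unadjusted p = 0.0857, edgeR adjusted p = 0.9995), and only DESeq2 with the replicate block put it past the threshold (0.36 ± 0.10, adjusted p = 0.0338, against 0.0929 in edgeR with that block). The MXD3 value was 0.20 or 0.53 when EV replicate 1 or 2 was left out and 0.22 without MXD3 replicate 2. Its fusion against MXD3 value was -0.17 ± 0.18 (unadjusted p = 0.375), and -0.30 or -0.03 when MXD3 replicate 1 or 2 was left out and -0.02 or -0.35 when STIM1::MXD3 replicate 1 or 2 was left out. BMS1 has pseudogene copies that were also counted (BMS1P20 at 1380 to 1612 counts, BMS1P4 at 424 to 561 and BMS1P1 at 34 to 121), so its counts are uncertain.

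NAT10, the acetyltransferase of 18S ribosomal RNA, was 105.7 and 115 CPM in EV, 127 and 129 in MXD3 and 118 and 129.5 in STIM1::MXD3, above EV without overlap for both constructs. DDX49, a DEAD-box helicase, was the clearest case in the opposite direction, at 58.0 and 55.8 CPM in EV, 53.1 and 46.8 in MXD3 and 59.2 and 59.7 in STIM1::MXD3. Both MXD3 libraries were the lowest and both fusion libraries the highest. Its values were -0.19 ± 0.13 for MXD3 over EV (unadjusted p = 0.179) and 0.25 ± 0.13 for the fusion over MXD3 (unadjusted p = 0.0872), at an edgeR adjusted p over 0.99 in both. The MXD3 value was -0.27 or -0.11 when MXD3 replicate 1 or 2 was left out. EMG1, a methyltransferase of 18S ribosomal RNA, held 19.0 and 21.2 CPM in EV, 17.1 and 20.0 in MXD3 and 19.5 and 22.7 in STIM1::MXD3, with replicate 2 the higher library in each group. DDX52, another DEAD-box helicase, and UTP14A, which activates DHX37, were at 46.6 to 62.2 and 39.4 to 48.5 CPM, and their groups overlapped. Within each pair DDX52 and UTP14A were above EV under both constructs. DDX10, DDX47 and RCL1, 2 helicases and the partner of BMS1, were higher in replicate 1 than in replicate 2 of every group.

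**Figure D3:**
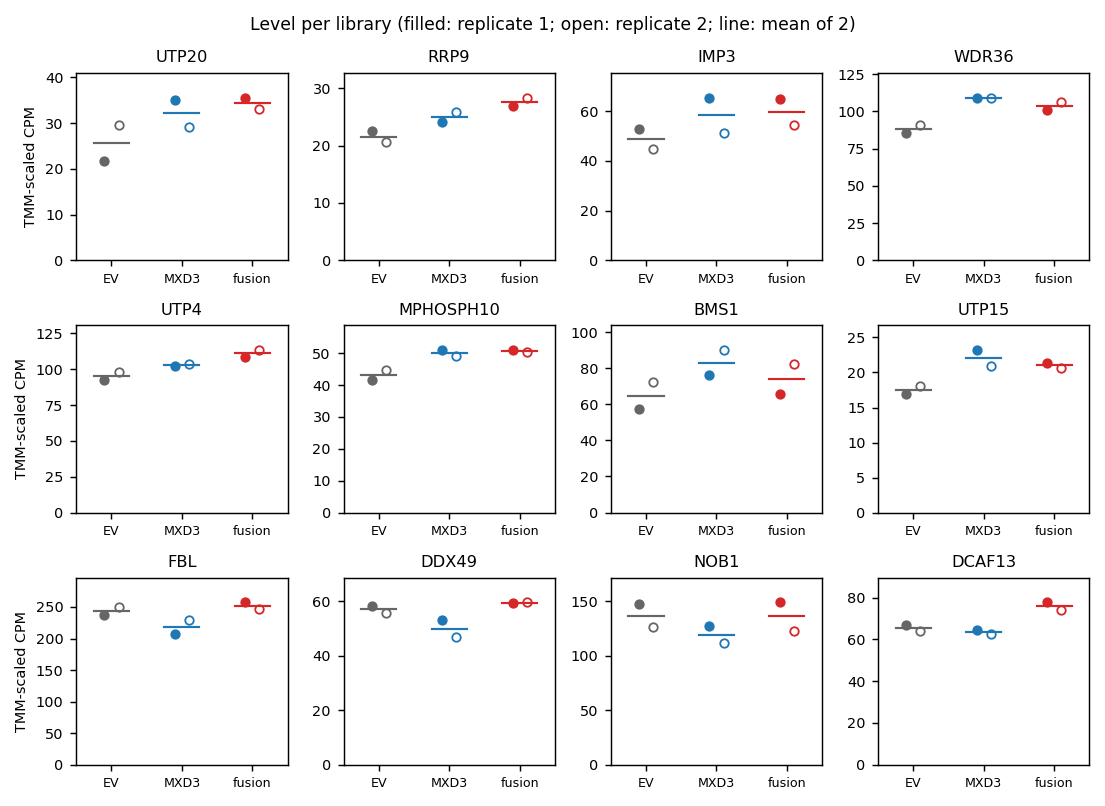
TMM-scaled CPM of 12 named members in each library, from 0 on a linear axis, with replicate 1 filled, replicate 2 open and a line at the mean of the 2 libraries; "fusion" is STIM1::MXD3. In WDR36, RRP9, MPHOSPH10 and UTP15 every library with a construct lies above both EV libraries, while FBL and DDX49 are lowest in MXD3.

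The other processome factors held the highest value of the fusion comparison. UTP20 (NCBI Gene 27340, at chr12:101673883-101780396 in GRCh37, plus strand) held 21.8 and 29.7 CPM in EV, 35.0 and 29.3 in MXD3 and 35.6 and 33.2 in STIM1::MXD3. The fusion libraries were above both EV libraries, but EV replicate 1 was far below the rest and the pairs gave 0.71 and 0.16. The fit gave 0.42 ± 0.19 for the fusion (unadjusted p = 0.0621, edgeR adjusted p = 1), and 0.21 without EV replicate 1 or 0.66 without EV replicate 2. For MXD3, whose replicate 2 was just below EV replicate 2, it gave 0.32 ± 0.19 (unadjusted p = 0.133), and 0.11 or 0.56 when EV replicate 1 or 2 was left out and 0.20 without MXD3 replicate 1. With the replicate block edgeR gave UTP20 0.42 ± 0.14 for the fusion (unadjusted p = 0.00881, adjusted p = 0.4785). RRP7A held 16.002 and 24.3 CPM in EV, 21.4 and 28.9 in MXD3 and 18.4 and 28.5 in STIM1::MXD3, with replicate 2 higher in every group. MXD3 was above EV in both pairs (0.42 and 0.25), the fit gave 0.32 ± 0.29 (unadjusted p = 0.314), and 0.05 or 0.65 when EV replicate 1 or 2 was left out and 0.53 or 0.07 when MXD3 replicate 1 or 2 was left out. With the replicate block edgeR gave RRP7A 0.33 ± 0.12 for MXD3 (unadjusted p = 0.0123, adjusted p = 0.219). A copy of RRP7A, RRP7BP, was counted at 86 to 249 counts, so its level is uncertain.

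Of the 16 tested factors in this role, 12 were higher with the fusion in both pairs (background 27.2%) and 0 lower (background 25.1%). With MXD3, 8 were higher in both pairs (background 30.6%) and 5 lower, near the background of 31.5%. DCAF13 (NCBI Gene 25879, at chr8:104426942-104455681 in GRCh37, plus strand), the human counterpart of yeast SOF1, held 67.0 and 63.97 CPM in EV, 64.5 and 62.6 in MXD3 and 77.9 and 74.2 in STIM1::MXD3. The fusion libraries were above all 4 others, and EV and MXD3 overlapped. The fusion over MXD3 gave 0.26 ± 0.12 (95% interval -0.02 to 0.53, unadjusted p = 0.0609, edgeR adjusted p = 0.9999), the highest value among members with the same sign in both pairs. With the replicate block edgeR gave DCAF13 0.26 ± 0.09 for this comparison (unadjusted p = 0.01, adjusted p = 0.668). PDCD11, the counterpart of yeast RRP5, was lowest in EV replicate 1, at 91.9 and 117 CPM in EV, 109.8 and 119 in MXD3 and 99.5 and 107 in STIM1::MXD3, and the fusion over MXD3 gave -0.14 ± 0.15 (unadjusted p = 0.37), and -0.21 or -0.08 when MXD3 replicate 1 or 2 was left out and -0.09 without STIM1::MXD3 replicate 1. NCL held 475 and 554 CPM in EV, 518 and 643 in MXD3 and 516 and 579 in STIM1::MXD3, with replicate 2 above replicate 1 in every group. UTP25 held 33.8 and 28.0 CPM in EV, 35.3 and 29.6 in MXD3 and 39.8 and 34.1 in STIM1::MXD3, with the fusion above EV and replicate 1 the higher library in each group. AATF, NGDN and NOL10, which form a complex of their own within the processome, showed no common direction: AATF held 115 and 121 CPM in EV, 101 and 119 in MXD3 and 115 and 112 in STIM1::MXD3, while NGDN was between 15.4 and 18.4 CPM and NOL10 between 46.5 and 59.6. UTP11, UTP25, NOL6, NOP14 and RRP36 were above EV in both fusion libraries, and UTP11, UTP23 and NOL6 in both MXD3 libraries.

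Late 40S assembly factors, which act on the pre-40S particle, had low medians of 0.03 for the fusion and 0.06 for MXD3. With the fusion BYSL, LTV1, RIOK2 and PNO1 were higher in both pairs (background 27.2%), and RIOK1, NOB1 and TSR1 had mixed signs. With MXD3, LTV1, RIOK1, RIOK2, TSR1 and PNO1 were higher in both pairs (background 30.6%). NOB1 was lower in both (background 31.5%), and BYSL had mixed signs. LTV1, which leaves the particle before it matures, held 44.3 and 50.6 CPM in EV, 47.5 and 58.5 in MXD3 and 52.1 and 58.0 in STIM1::MXD3. Both fusion libraries were above both EV libraries, with 0.21 ± 0.16 (unadjusted p = 0.213, edgeR adjusted p = 1). This value was 0.12 or 0.31 when EV replicate 1 or 2 was left out and 0.13 without STIM1::MXD3 replicate 2, and 0.14 with GC content and length offsets. PNO1, the partner of the NOB1 nuclease, held 39.5 and 39.4 CPM in EV, 50.3 and 41.8 in MXD3 and 50.3 and 40.2 in STIM1::MXD3, and the replicate 1 libraries of both constructs stood apart from the other 4. For PNO1 the MXD3 value was 0.22 ± 0.16 (unadjusted p = 0.216), and 0.10 or 0.34 when MXD3 replicate 1 or 2 was left out. NOB1 (NCBI Gene 28987, at chr16:69775774-69788829 in GRCh37, minus strand), the nuclease that makes the 3′ end of 18S ribosomal RNA, held 147 and 126 CPM in EV, 127 and 111 in MXD3 and 149 and 123 in STIM1::MXD3. It was lower with MXD3 in both pairs (-0.21 and -0.18), although MXD3 replicate 1 and EV replicate 2 were within 1 CPM of each other, and the fit gave -0.20 ± 0.15 (unadjusted p = 0.24, edgeR adjusted p = 0.9995), and -0.08 or -0.31 when EV replicate 1 or 2 was left out and -0.12 without MXD3 replicate 2. BYSL, the counterpart of yeast ENP1, held 47.6 and 47.7 CPM in EV, 51.8 and 43.1 in MXD3 and 58.2 and 50.5 in STIM1::MXD3, above EV in both fusion libraries and on either side of EV with MXD3. The kinases RIOK1 and RIOK2 and TSR1, a GTPase-like factor that keeps the particle from joining the large subunit too early, ranged from 43.8 to 68.9 CPM over the libraries.

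The assembly factors were set beside 3 other lists of the same pathway. Small-subunit ribosomal proteins, the 33 structural partners of the 18S ribosomal RNA, had a median log2 fold change of -0.01 for the fusion and -0.24 for MXD3 over EV. With MXD3, 32 of 33 were lower in both pairs (background 31.5%). Their summed level was 30878 and 31446 CPM in EV, 25251 and 27521 in MXD3 and 31791 and 30770 in STIM1::MXD3, so that the MXD3 libraries were below all 4 others while the summed assembly factors in them were above EV. edgeR called 0 of the 33 in either direction for MXD3 over EV. At an unadjusted p under 0.05 it gave 2 lower (background 0.907%) and 0 higher (background 0.953%). DESeq2 called 0 without the block, and 6 lower and 0 higher with it, against 0.661% and 0.415% of all genes. Between the constructs their median was 0.21, higher with the fusion. Ribosomal protein genes have many near-identical copies in the genome, so their counts are uncertain.

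Large-subunit assembly factors, 55 tested, had medians of 0.11 for the fusion and 0.09 for MXD3, close to those of the small-subunit factors. Higher in both pairs were 31 of 55 (56.4%; background 27.2%) and 26 of 55 (47.3%; background 30.6%). edgeR called 0 of them in either comparison, with 0 and 3 higher at an unadjusted p under 0.05 (background 0.408% and 0.953%). DESeq2 called 0 without the block. With the block DESeq2 called 1 higher for the fusion, where it called 0.0648% of all genes, and 4 higher for MXD3, against 0.415%. It called 0 lower in both comparisons, against 0.0518% and 0.661%. The 26 further small-subunit assembly genes had medians of 0.01 and 0.00, with 10 and 9 higher in both pairs (background 27.2% and 30.6%). For them edgeR called 0, with 0 and 0 higher at an unadjusted p under 0.05 (background 0.408% and 0.953%). No difference between lists was tested.

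**Figure D4:**
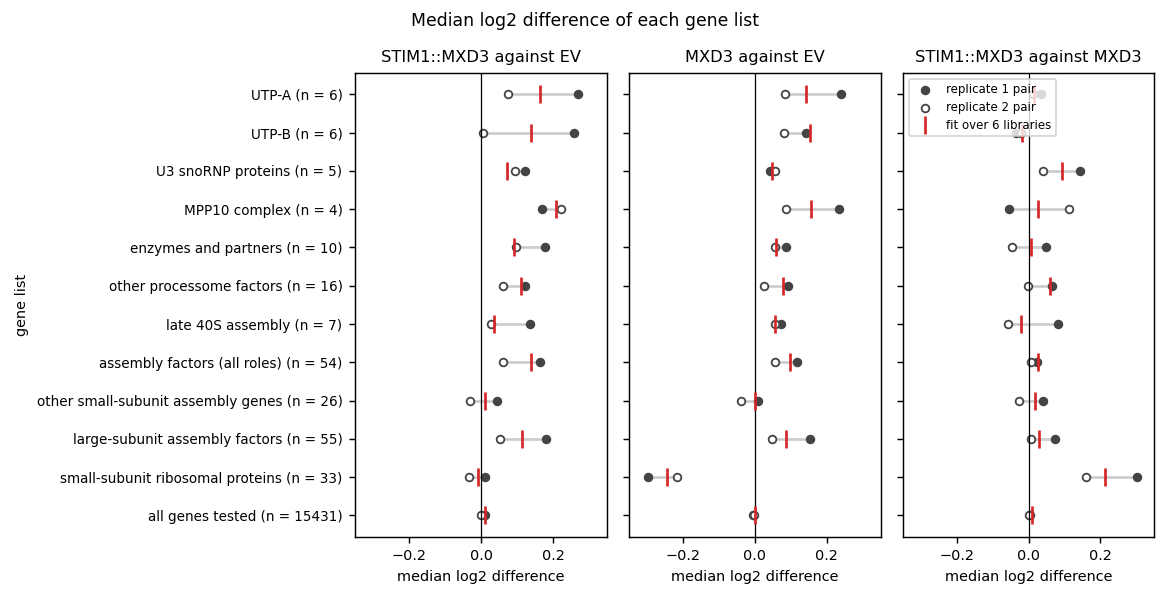
Median log2 difference of each role group of the assembly factors and of 3 other lists and all genes tested, in the replicate 1 pair (filled), the replicate 2 pair (open) and the fit (red mark), for the 3 comparisons. Ribosomal proteins of the small subunit lie at -0.24 for MXD3 over EV, where the assembly factors lie at 0.10.

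The assembly factors were also split by the E-box. Members with the motif had a median log2 fold change of 0.17 for the fusion (19 genes) and those without it 0.10 (27 genes), and for MXD3 the medians were 0.11 and 0.10. Over all tested genes with a promoter, those with the motif were at 0.02 for both constructs and those without it at 0.01 and 0.00. No test was run between these groups.

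More members passed the test for the replicate number than in any comparison of plasmids. The replicate test set 3 libraries against 3 and each plasmid test 2 against 2, so the numbers passing are not directly comparable. In the fit with the number as a block, 14 of the 54 members passed the threshold for replicate 2 over replicate 1 (25.9%), 6 higher and 8 lower, where 29.2% of all genes did, 13.1% higher and 16.1% lower. The median absolute log2 difference of members in that fit was 0.14 for the replicate number, 0.13 for the fusion over EV and 0.11 for MXD3 over EV, where that of all genes was 0.24, 0.13 and 0.15. UTP3 differed most, by 0.56 ± 0.10 (edgeR adjusted p = 0.000535), with 0.53 in EV, 0.39 in MXD3 and 0.76 in STIM1::MXD3. RRP7A gave 0.56 ± 0.10 (adjusted p = 0.000575) and BMS1 0.30 ± 0.07 (adjusted p = 0.00548). DDX47 gave -0.44 ± 0.10 (adjusted p = 0.0028), with -0.27 in EV, -0.35 in MXD3 and -0.70 in STIM1::MXD3, and RCL1 and TBL3 gave -0.41 ± 0.07 and -0.37 ± 0.07 (adjusted p = 0.000659 and 0.00111). The members moved in both directions, with a median of 0.00. The erythroid markers of K562 moved with the number too: their summed level was 7773 and 6940 CPM in EV, 8292 and 6876 in MXD3 and 8456 and 6155 in STIM1::MXD3, and 9 of 10 were lower in replicate 2. The part of these values in the members' differences was not tested.

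**Figure D5:**
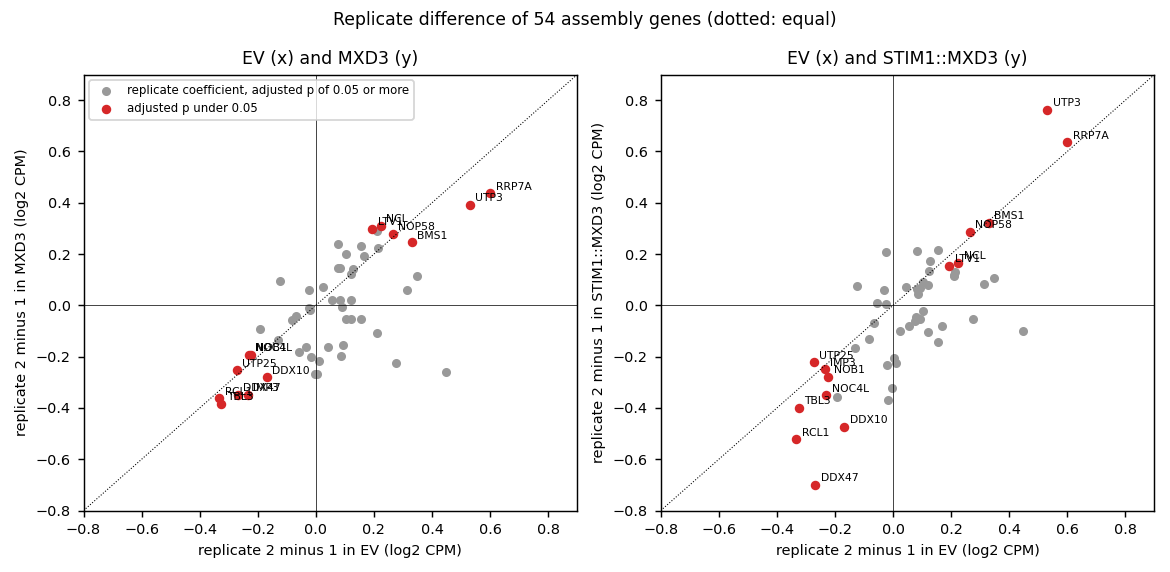
Log2 difference of replicate 2 minus replicate 1 for the 54 tested members, in EV (x) against MXD3 (left) or STIM1::MXD3 (right), with the dotted line at equal values and the 14 members past the threshold in red. UTP3 and RRP7A lie at the upper right in both plots, and DDX47, RCL1 and TBL3 at the lower left.

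Some counts of members may hold reads of other genes. Exons of 17 tested members overlap another listed gene, and for 8 of them (UTP15, HEATR1, SNU13, IMP3, EMG1, UTP23, DCAF13 and TSR1) that gene had more than 10% of the member's counts and lay on the opposite strand. Mean counts were 25070 for EIF3H and 17620 for RAD21 against 1188 for UTP23, and 2139 for LPCAT3 against 1162 for EMG1. They were 2236 for SNX33 against 3248 for IMP3, and 699 for ANKRA2 against 1183 for UTP15. The overlapping gene had fewer counts than the member in HEATR1, SNU13, DCAF13 and TSR1 as well. The use of strand in counting is not given in the sources used here, so reads of both genes cannot be told apart there. UTP14A has an expressed retrocopy, UTP14C, at 721 to 1422 counts. WDR46 (GRCh37 chromosome 6, positions 33246885 to 33257024) lies in the major histocompatibility complex next to B3GALT4, PFDN6 and RGL2, which had 0 or 1 counts per library, and RPS18, with 27 to 69. The cause of the low counts there was not tested.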

How the data were processed

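RNA was sequenced from 6 libraries of transfected K562 cells, 2 per plasmid group, grouped by their labels. The authors deposited raw counts per gene and library, under NCBI Gene identifiers and without normalization; the submitters' processing notes name HISAT2 2.2.1, featureCounts 2.0.1 and hg19. The annotation and the use of strand are not given in the sources used here. Of the counts from 1 to 39, 59.8% to 67.3% per library were even, so both ends of a read pair may have been counted, and halved counts were an alternative.

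Genes were filtered with filterByExpr and scaled by TMM, and all 15431 were tested in 1 fit of the 6 libraries without a block with edgeR 4.0.16 (R 4.3.3) and its two-sided quasi-likelihood test, with Benjamini-Hochberg adjustment over all genes (threshold 0.05). DESeq2 1.42.0 was an alternative. Log2 ratios of replicate pairs used a prior count of 2. Transcript lengths and gene coordinates came from GENCODE (GRCh37), promoters from RefSeq. Libraries held 53048343 to 63835779 counts, and the lowest count of a tested member was 815, so the spread between libraries sets the precision. The script was tested on simulated data. These had no difference between replicate numbers, and their planted fold changes were larger than those of the members between plasmids. The simulation therefore does not show how well changes of the members' size are found.

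Replicate numbers are shared by the groups, and the labels do not say what they mark. The departures from the group mean of libraries with the same number correlated at r = 0.27, 0.364 and 0.45 over all genes for the 3 pairs of groups. Over the 54 tested members the values were 0.683, 0.79 and 0.798. All of these members averaged more than 5 CPM. Across the 10250 genes averaging 5 CPM or more, r was 0.621, 0.707 and 0.792. Most of the contrast between the members and all genes is therefore shared by other genes at such levels. The first principal component (42.8%) separated the numbers. The libraries were therefore read as pairs in the log2 ratios and the fits with the block, on the evidence of the counts alone. Unless the block is named, the SE and p-values of comparisons between plasmids come from the fit without it. They therefore hold the difference between replicate numbers as well. Values with 1 library left out also come from fits without the block. Where that library belonged to a compared group, the replicate numbers were unequal between the groups, so their difference enters the value.

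The members, the lists and the rule for naming genes were chosen with earlier results of these data known. Named in each comparison were up to 3 members with the highest and 3 with the lowest fold change among those with the same sign in both pairs, members past the threshold with or without the block, the member with the smallest p in each role, and the 2 highest and 2 lowest length-scaled levels. Other members are given as ranges, counts or levels, chosen after their values were seen. Members higher in both pairs were counted against all genes. Alternatives changed the scaling, filter, test, libraries, GC content and length offsets, and the block.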

Additional observations from a re-analysis of the deposited data

Results flagged for a closer look

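For 5 members both fusion libraries lay above, and both MXD3 libraries below, the EV library of the same number. These were 9.26% of the 54 tested members, against 428 (2.77%) of all 15431 genes tested, and the reverse pattern was found in 0 members and 332 genes (2.15%). Whether the 2 shares differ was not tested. The log2 difference of STIM1::MXD3 over MXD3 was 0.26 for DCAF13, 0.25 for DDX49, 0.19 for EMG1, 0.11 for NGDN and 0.0715 for KRR1. MXD3 over EV in the 2 pairs was -0.13 and -0.25 for DDX49, -0.16 and -0.08 for EMG1 and -0.055 and -0.031 for DCAF13. It was -0.10 and -0.009 for NGDN and -0.03 and -0.006 for KRR1, so some of the signs rest on very small differences. Both comparisons use the same EV libraries, so a low or high EV library moves both. The direct test of the fusion against MXD3 (edgeR) did not call any of the 5, with an adjusted p of over 0.99 in each. For DCAF13 and EMG1 an overlapping gene on the opposite strand (SLC25A32 and LPCAT3) was also counted, and its part in the values was not tested.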

How the results depend on the processing

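The number of called members was 0 under every alternative, except that DESeq2 with the replicate block gave 1 for MXD3 over EV (BMS1, 0.36, adjusted p = 0.0338). The fit with the replicate block in edgeR gave medians of 0.13 for the fusion over EV, 0.10 for MXD3 over EV and 0.03 between the constructs, and the pairing changed no other call. The medians over EV kept their sign, from 0.11 to 0.15 for the fusion and 0.09 to 0.14 for MXD3 over 11 alternatives each, and from 0.11 to 0.16 and 0.08 to 0.12 without 1 library, where the lone library left is assumed to vary like the other groups. The median between the constructs was -0.00401 with total counts, 0.013 with GC content and length offsets and 0.013 with the replicate block and these offsets, and 0.015 to 0.057 without 1 library (lowest without STIM1::MXD3 replicate 1, highest without STIM1::MXD3 replicate 2; 0.045 without MXD3 replicate 1); the cause was not tested. Members higher in both pairs numbered 38 to 41, 35 to 37 and 14 to 19 in the order of the comparisons. The 2 alternatives with GC content and length offsets or halved counts, chosen after seeing the data, gave 18 and 14 members past the threshold for the replicate number. Of 25 named fold changes none changed sign, but leaving out 1 library moved 15 by over 1.5 times, BMS1 for MXD3 over EV from 0.20 without EV replicate 1 to 0.53 without EV replicate 2. Leaving out a library of a compared group, in fits without the block, left the replicate numbers unequal between the groups. Such values therefore also hold the difference between replicate numbers. For BMS1 that difference was 0.30, and its MXD3 over EV ratios in the 2 pairs were 0.41 and 0.32. With 2 libraries a group the spread between libraries, not depth, limits single genes.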
